A study of Mus musculus with 12 samples.

Results

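Genes of the lipid droplet coat, of lipolysis and of the last step of triacylglycerol synthesis were examined for trimethylation of histone H3 at lysine 4 (H3K4me3), a mark typical of active promoters, in adult mouse cardiomyocytes (CMs). The set comprised *Plin2*, *Plin3*, *Plin4*, *Plin5*, *Hsd17b11*, *Pnpla2*, *Abhd5*, *Lipe*, *Dgat1* and *Dgat2*, and its members were all peaks that carry one of these 10 gene names in the deposited peak table. Each gene had 1 peak, giving 10 of 15848 peaks in all, and all 10 were among the 15039 peaks tested. The genes were chosen with results of the comparison below known, so their differences between genotypes are given as a description. Members with an adjusted p under 0.05 in the fit over all tested peaks are marked, which is no separate test of them. No p-value is printed for a member.

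Sequencing of chromatin immunoprecipitated for H3K4me3 (ChIP–seq) gave 3 libraries of control mice (CtrlCre) and 3 of mice lacking *Cpt1b* in CMs (Cpt1bcKO). Cpt1b is the muscle form of the outer mitochondrial membrane enzyme that commits long-chain fatty acids to oxidation. Both genotypes carried a Cre recombinase driven by the *Myh6* (αMHC) promoter, which is active in CMs from embryonic stages, the controls with intact *Cpt1b* alleles and the Cpt1bcKO mice with loxP-flanked alleles, so the deletion was in place long before the adult nuclei were sorted. Controls were littermates on the same C57BL/6 background. The labels give neither an age nor the number of mice behind a library, and p-values measure the spread between these libraries.

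Lipid droplets store fatty acids as triacylglycerol inside a phospholipid monolayer coated with proteins. Perilipins (Plin) cover the surface and limit or direct the access of lipases, and Plin5 also ties droplets to mitochondria in oxidative tissue. Adipose triglyceride lipase (Pnpla2) with its coactivator Abhd5 releases the first fatty acid, hormone-sensitive lipase (Lipe) acts on the diacylglycerol left, and Dgat1 and Dgat2 make triacylglycerol from diacylglycerol and acyl-CoA. In the heart, fatty acids released from droplets serve as fuel and as ligands of peroxisome proliferator-activated receptors (PPARs), nuclear receptors known to drive many of these genes.

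The promoter sequences of the 3 genes whose peaks were higher in Cpt1bcKO, *Hsd17b11*, *Plin2* and *Plin5*, and of *Plin4*, the neighbour of *Plin5* whose values overlapped between genotypes, are shown so that promoter sequence can be read beside the values. The peak covered all 300 bases shown for *Hsd17b11* and *Plin5*, 261 for *Plin2* and 82 for *Plin4*. Each runs 5′ to 3′ on the strand of the gene, which is the minus strand for all 4, from 250 bases before to 50 bases after a start site of RefSeq on GRCm38.p6. Capitals mark, on either strand, a nuclear receptor motif with the letters AGGTCA, the CCAAT box, an E-box with the letters CACGTG and a GC box with the letters GGGCGG.
Hsd17b11, chr5:104021747-104022046: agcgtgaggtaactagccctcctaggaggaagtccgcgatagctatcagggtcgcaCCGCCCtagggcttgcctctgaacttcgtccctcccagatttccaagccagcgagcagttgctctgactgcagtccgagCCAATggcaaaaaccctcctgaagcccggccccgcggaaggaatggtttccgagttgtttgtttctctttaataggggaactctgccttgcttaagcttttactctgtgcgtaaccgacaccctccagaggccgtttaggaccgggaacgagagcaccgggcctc
Plin2, chr4:86670010-86670309: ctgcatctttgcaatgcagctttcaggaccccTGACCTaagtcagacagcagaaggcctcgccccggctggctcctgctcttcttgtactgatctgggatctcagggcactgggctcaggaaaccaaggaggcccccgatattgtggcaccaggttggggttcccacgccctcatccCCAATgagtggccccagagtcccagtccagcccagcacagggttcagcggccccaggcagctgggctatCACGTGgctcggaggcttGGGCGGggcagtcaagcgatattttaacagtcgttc
Plin5, chr17:56117249-56117548: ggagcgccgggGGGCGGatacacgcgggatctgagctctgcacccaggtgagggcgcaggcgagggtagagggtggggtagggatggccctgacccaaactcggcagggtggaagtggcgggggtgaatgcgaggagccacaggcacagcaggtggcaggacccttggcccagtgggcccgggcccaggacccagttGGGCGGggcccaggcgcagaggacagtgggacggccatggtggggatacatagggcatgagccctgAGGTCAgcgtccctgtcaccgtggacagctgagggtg
Plin4, chr17:56109733-56110032: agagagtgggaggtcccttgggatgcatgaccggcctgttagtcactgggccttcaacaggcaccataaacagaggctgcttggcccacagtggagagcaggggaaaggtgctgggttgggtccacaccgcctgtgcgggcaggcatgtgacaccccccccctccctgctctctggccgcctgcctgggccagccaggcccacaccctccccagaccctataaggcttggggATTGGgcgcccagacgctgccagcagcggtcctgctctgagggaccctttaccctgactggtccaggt

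The letters were searched on both strands of 32851 RefSeq promoters of this length, of which 10 belonged to 8 of the member genes (*Plin5* and *Lipe* have 2 each). AGGTCA occurred in promoters of *Abhd5*, *Plin2* and *Plin5*, against 16.3% of all promoters. CCAAT occurred at *Hsd17b11* and all 4 perilipin genes of the set, against 37.4%. At *Plin5* it lay only in the other promoter, which is not printed above and had 85 bases in the peak. CACGTG occurred at *Plin2* and *Lipe*, against 7.15%. GGGCGG was in 8 of 10 member promoters, against 35.7%. The full PPAR element, a direct repeat of AGGTCA with 1 base of any kind between the copies, was in 0 of 10 member promoters and in 0.0396% of all promoters, and TATAAA was in 0 of 10 against 13.6%. The promoter percentages cover all 32851 RefSeq promoters, with or without a peak. In windows of 1000 bases around the summits of the 10 member peaks, AGGTCA was present in 5, against 38.6% of the tested peaks. The full element was in 0, against 0.133%. Within the same windows GGGCGG was in 9 of 10, against 79.5% of the tested peaks, and CCAAT in 7, against 64.4%. CACGTG was in 2, against 19.995%, and TATAAA in 2, against 22.1%. These are matches of letters only.

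All values below are normalized counts of reads in the peak, that is, read counts corrected for library depth and composition. Total counts in peaks ranged from 763133 to 2766416 per library, with CtrlCre replicate 2 the shallowest. Between 43 and 841 reads stood behind a single member value. The correlation of log2 values between libraries was 0.914 to 0.967. Of the tested peaks, 1.11% were higher and 1.82% lower in Cpt1bcKO at an adjusted p under 0.05 (limma on log2(value + 1), Benjamini–Hochberg over all tested peaks), and these are termed called. For 7.8% of the tested peaks all Cpt1bcKO values lay above all CtrlCre values, and for 8.46% they lay below.

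Of the 10 members, 3 were called higher, *Hsd17b11*, *Plin5* and *Plin2*, and 0 were called lower. The same 3 were the members without overlap between genotypes, all with the higher values in Cpt1bcKO. The members' median log2 difference (Cpt1bcKO minus CtrlCre) was 0.19, against 0.01 over all tested peaks. The difference was positive for 8 members and negative for *Plin4* and *Pnpla2*, and 51.2% of all tested peaks had a positive difference. Because the genes were chosen on this contrast, nothing is read from these counts.

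**Figure D1:**
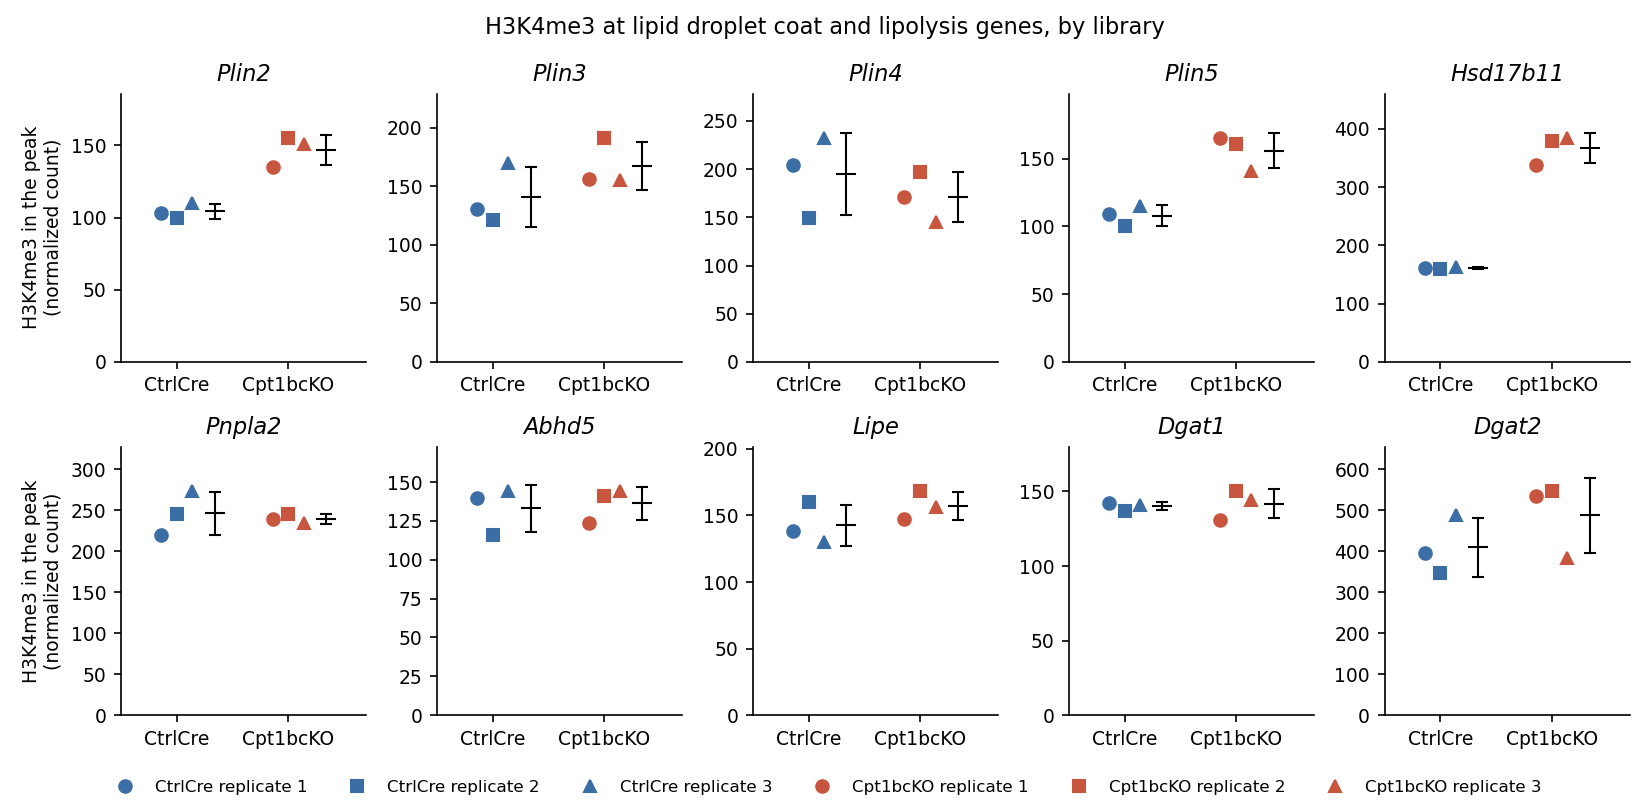
Normalized count of H3K4me3 reads in the peak of each gene (y axis, from 0, its scale set per gene) for 3 CtrlCre libraries (blue) and 3 Cpt1bcKO libraries (red), with marker shape giving the replicate and black bars the mean ± SD. Genotypes are apart for *Plin2*, *Plin5* and *Hsd17b11* and overlap for the other 7 genes.

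*Hsd17b11* encodes a short-chain dehydrogenase that resides on lipid droplets. Its normalized counts were 161, 160 and 163 in CtrlCre replicates 1 to 3 and 338, 379 and 384 in Cpt1bcKO replicates 1 to 3. The lowest knockout library was thus above the highest control library. The mean was 161 ± 1.53 (SD, n = 3) in CtrlCre and 367 ± 25.2 (SD, n = 3) in Cpt1bcKO, a 2.27-fold difference and a log2 difference of 1.18 (SE 0.10). It was called in all 6 fits that left out 1 library, with log2 differences from 1.15 to 1.24. These fits reuse the contrast on which the gene was chosen, so they only describe the dependence on single libraries. The spread of the 3 controls was below the counting error of these values, which was 12.0% for CtrlCre replicate 2, so their closeness is no measure of precision.

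*Plin2* encodes the perilipin found on droplets of most non-adipose cells. Its normalized counts were 103, 100 and 110 in CtrlCre and 135, 155 and 151 in Cpt1bcKO. All knockout libraries exceeded all controls. The mean was 104 ± 5.13 (SD, n = 3) against 147 ± 10.6 (SD, n = 3), a log2 difference of 0.49 (SE 0.12). *Plin5*, the perilipin of oxidative tissue, had 109, 100 and 115 in CtrlCre and 165, 161 and 141 in Cpt1bcKO. Here too the groups were apart, with the lowest knockout value in replicate 3. The mean was 108 ± 7.55 (SD, n = 3) against 156 ± 12.9 (SD, n = 3), a log2 difference of 0.52 (SE 0.12).

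The calls of *Plin2* and *Plin5* were each lost in 3 of the 6 fits that left out 1 library, which have fewer samples. Without CtrlCre replicate 1 or without Cpt1bcKO replicate 2, neither was called and 1 member remained, *Hsd17b11*. Without Cpt1bcKO replicate 1, *Plin5* was not called, and without Cpt1bcKO replicate 3, *Plin2* was not called, which left 2 members each time. The log2 differences themselves lay between 0.45 and 0.55 for *Plin2* and between 0.47 and 0.59 for *Plin5* over the 6 fits.

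*Plin3*, a perilipin shared between cytosol and droplets, had 131, 121 and 170 in CtrlCre and 156, 191 and 155 in Cpt1bcKO. CtrlCre replicate 3 lay above 2 of the knockout libraries. The log2 difference was 0.26 (SE 0.13). *Plin4*, a perilipin that binds droplets through a long run of amphipathic repeats, had 204, 149 and 232 in CtrlCre and 171, 197 and 145 in Cpt1bcKO. The genotypes overlapped and the log2 difference was -0.18 (SE 0.14). *Plin4* had the largest spread among controls of the 10 genes, with an SD of 0.33 on the log2 scale. *Plin1*, the perilipin of adipocytes, had no peak in the table.

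Among the genes of lipolysis, *Pnpla2* had 220, 246 and 273 in CtrlCre and 239, 246 and 234 in Cpt1bcKO. The knockout values lay inside the range of the controls, with a log2 difference of -0.03 (SE 0.10). *Abhd5* had 140, 116 and 144 in CtrlCre and 124, 141 and 144 in Cpt1bcKO, also overlapping, with a log2 difference of 0.04 (SE 0.12). *Lipe* had 138, 160 and 130 in CtrlCre and 147, 168 and 156 in Cpt1bcKO. The highest control was above 2 of the knockout libraries, and the log2 difference was 0.14 (SE 0.12).

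Both genes of the final acylation gave overlapping values. *Dgat1* had 142, 137 and 141 in CtrlCre and 131, 150 and 144 in Cpt1bcKO, with a log2 difference of 0.01 (SE 0.11). *Dgat2*, whose peak was the widest of the set, had 397, 346 and 488 in CtrlCre and 536, 546 and 383 in Cpt1bcKO. Cpt1bcKO replicate 3 lay below 2 of the controls, and the log2 difference was 0.25 (SE 0.13). The sign of the difference changed with the library left out for *Abhd5*, *Dgat1* and *Pnpla2*.

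**Figure D2:**
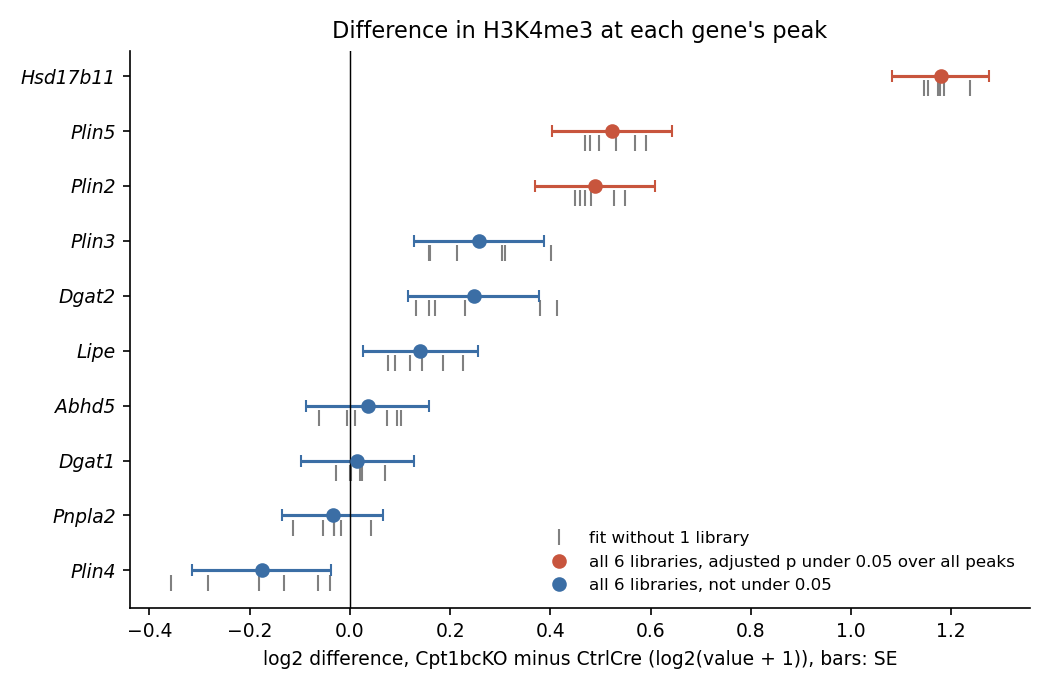
Log2 difference in H3K4me3, Cpt1bcKO minus CtrlCre on log2(value + 1), for each gene (x axis), with the SE from limma as bars and the 6 fits without 1 library as grey ticks. *Hsd17b11* at 1.18 stands above *Plin5* and *Plin2* at 0.52 and 0.49, and the other 7 lie between -0.18 and 0.26.

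The peaks were next placed on their genes, using mm10 coordinates and the transcripts of GENCODE vM21, a later release than that used for the deposited names. The *Hsd17b11* peak (chr5:104018974-104022654) reached from 735 bases before the gene start to 2945 bases into the gene, with 69.4% of its length in introns and 10.6% in exons, and held the starts of both annotated transcripts. The *Plin2* peak (chr4:86668227-86670270) covered 210 bases before and 1833 bases after the gene start and held 4 of 8 transcript starts. The *Plin5* peak (chr17:56114323-56117583) began 13 bases inside the gene and extended to 3273 bases, and held the start of Plin5-202 but not that of the outermost transcript. The corresponding RefSeq promoter printed above, for the inner start, lay in the peak with all 300 bases.

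For 9 of the 10 genes the summit lay between 153 and 552 bases downstream of the gene start. *Lipe* was the exception. Its named peak (chr7:25394005-25396329) lay 2381 to 4705 bases inside the gene, 35.7% in exons and the rest in introns, and overlapped the antisense gene 4732471J01Rik. No *Lipe* transcript start of vM21 lay in it, although the promoter of 1 of the 2 RefSeq starts did with all 300 bases. An unnamed peak farther along the gene (chr7:25385767-25390634) held 3 vM21 starts and the other RefSeq promoter. It had 76, 65 and 81 in CtrlCre and 62, 71 and 58 in Cpt1bcKO, again overlapping, with a log2 difference of -0.21 (SE 0.17, limma adjusted p = 0.686).

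**Figure D3:**
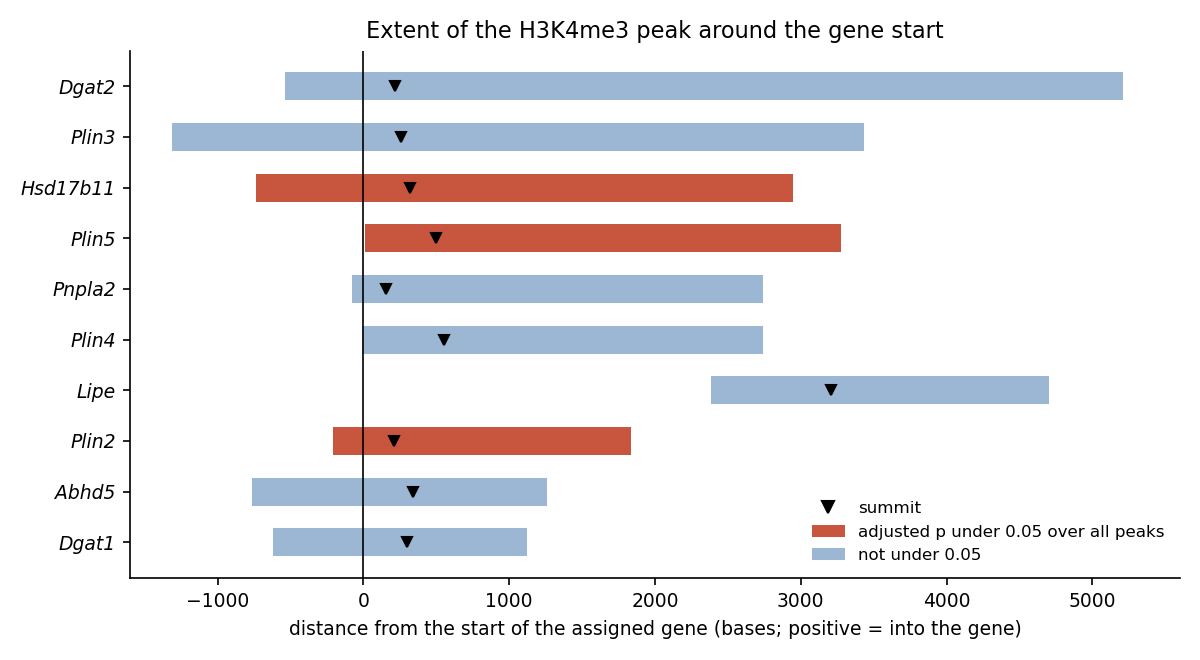
Extent of each peak along its gene in bases from the gene start (x axis, positive into the gene), with the summit as a triangle and peaks called higher in red. Peaks extend farther into the gene than upstream of it for all 10 genes, and the *Lipe* peak starts 2381 bases downstream.

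The members were broad. Their median width was 2787 bases, against 1514 bases over all tested peaks, and 7 of 10 exceeded 2222 bases, the 75th percentile of the tested peaks. *Dgat2* was the widest with 5750 bases and *Dgat1* the narrowest with 1744. Of the tested peaks above that percentile, 2.50% were called higher and 4.66% lower. Over their whole length the member peaks were also poor in CpG. Their median was 20.7 CpG dinucleotides per 1000 bases, against 48.6 over all tested peaks and 42.3 over those wider than the 75th percentile. Of the 10, 8 lay under the lower quartile of all tested peaks, with *Plin4* the lowest at 8.35, and *Dgat1* and *Abhd5* stood apart at 60.2 and 58.7. The promoters of 300 bases did not share this low content. They held 32 CpG at *Abhd5*, 18 at *Hsd17b11* and *Pnpla2*, 16 at each *Plin5* promoter, 10 at *Plin2*, 9 at *Plin3* and 7 at *Plin4*. The 2 *Lipe* promoters held 19 and 2, and the median of all RefSeq promoters was 7.

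**Figure D4:**
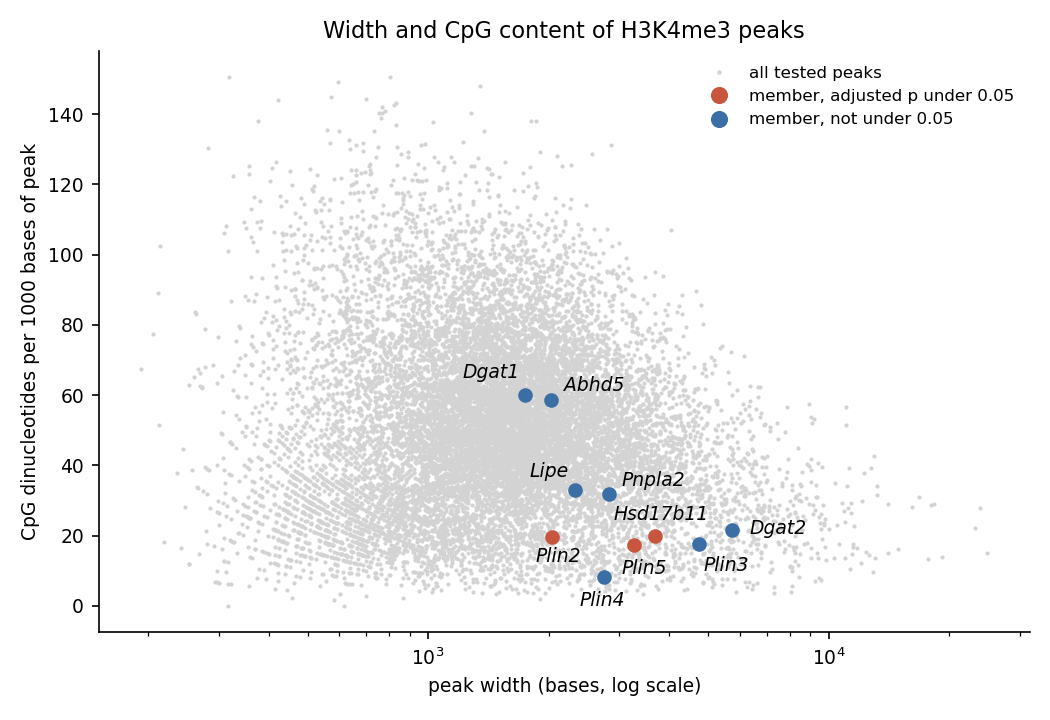
Peak width in bases (x axis, log scale) against CpG dinucleotides per 1000 bases of peak (y axis) for all tested peaks (grey), members called higher (red) and the other members (blue). Except for *Dgat1* and *Abhd5*, the members lie at low CpG content, between 8.35 and 33.1.

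Levels were also taken per 1000 bases of peak, which adjusts for the width of the merged peaks and for no other difference between genes. On this scale the control level was highest for *Pnpla2*, with a mean normalized count of 87.4 ± 9.40 (SD, n = 3). Next came *Dgat1*, *Dgat2*, *Plin4*, *Abhd5* and *Lipe*. From *Pnpla2* down to *Lipe*, each gene overlapped with the one before it. *Plin2* at 51.1 ± 2.51, *Hsd17b11* at 43.8 ± 0.415 and *Plin5* at 33.1 ± 2.32 followed (SD, n = 3 each), and their values did not overlap with those of the gene next above. *Plin3*, last at 29.7 ± 5.46 (SD, n = 3), overlapped with *Plin5*. In Cpt1bcKO, *Hsd17b11* ranked 1 with 99.7 ± 6.86 (SD, n = 3), *Plin2* ranked 5, and *Plin5* and *Plin3* kept ranks 9 and 10. These are the values of the contrast on which the genes were chosen, divided by width. The changes of rank therefore restate the differences above, and nothing further is read from them.

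The peaks next to the members on the chromosome were examined to see how far a difference extended. On either side of *Hsd17b11*, *Nudt9* at 23375 bases had a log2 difference of 0.03 (SE 0.11) and *Klhl8* at 107794 bases one of -0.02 (SE 0.17). Next to *Plin5*, *Plin4* began 4509 bases away, with the overlapping values given above, and *Lrg1* 2032 bases away had a log2 difference of 0.06 (SE 0.13). Around *Plin2*, *Haus6* had 0.26 (SE 0.13, limma adjusted p = 0.399) and *Dennd4c* 0.01 (SE 0.10). Of the 20 neighbouring peaks, 2 were called higher and 0 lower, against 1.11% and 1.82% of all tested peaks. The first was *Plin5* as the neighbour of *Plin4*, itself a member chosen on this contrast. The other was *Scrt1* at 10224 bases from *Dgat1* (log2 difference 0.83, SE 0.21, limma adjusted p = 0.0274).

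Other genes of the pathway were then taken from 3 lists that hold no member. The lists were chosen with earlier results of these data known, so their calls are a description. Over all tested peaks, 1.11% were called higher and 1.82% lower. In triacylglycerol synthesis, 7 of 13 genes had 8 tested peaks, of which 1 was called higher and 0 lower. This was a peak of *Agpat2*, an acyltransferase that makes phosphatidic acid (chr2:26606946-26613392), with 138, 156 and 143 in CtrlCre and 245, 279 and 189 in Cpt1bcKO. All knockout libraries were above the controls, and the log2 difference was 0.69 (SE 0.12, limma adjusted p = 0.00172). The other *Agpat2* peak had a log2 difference of 0.32 (SE 0.12, limma adjusted p = 0.235). *Gpam*, the mitochondrial enzyme of the first acylation and the highest peak of the list, had 0.17 (SE 0.12).

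Among lipolysis enzymes and regulators, 10 of 11 genes had a tested peak each, of which 0 were called higher and 2 lower. *G0s2*, which encodes an inhibitor of Pnpla2, had 268, 279 and 255 in CtrlCre and 189, 207 and 148 in Cpt1bcKO. It was lower in all knockout libraries, with a log2 difference of -0.57 (SE 0.11, limma adjusted p = 0.00477). Without Cpt1bcKO replicate 3 its log2 difference was -0.43 (limma adjusted p = 0.0504). *Ces1d*, a carboxylesterase with close paralogs beside it, had 157, 121 and 250 in CtrlCre and 113, 114 and 32 in Cpt1bcKO, so that the lowest value came from Cpt1bcKO replicate 3.

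The *Ces1d* log2 difference was -1.16 (SE 0.31, limma adjusted p = 0.0403). It was not called without CtrlCre replicate 1 (-1.21), without CtrlCre replicate 3 (-0.88) or without Cpt1bcKO replicate 3 (-0.56). *Lpl*, the lipase at the vessel wall and the highest peak of the list, had a log2 difference of -0.22 (SE 0.12). Of the lipid droplet proteins and genes of droplet formation, 16 of 22 genes had a peak each and 0 were called in either direction. The highest of these, *Aup1*, had a log2 difference of -0.04 (SE 0.10).

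**Figure D5:**
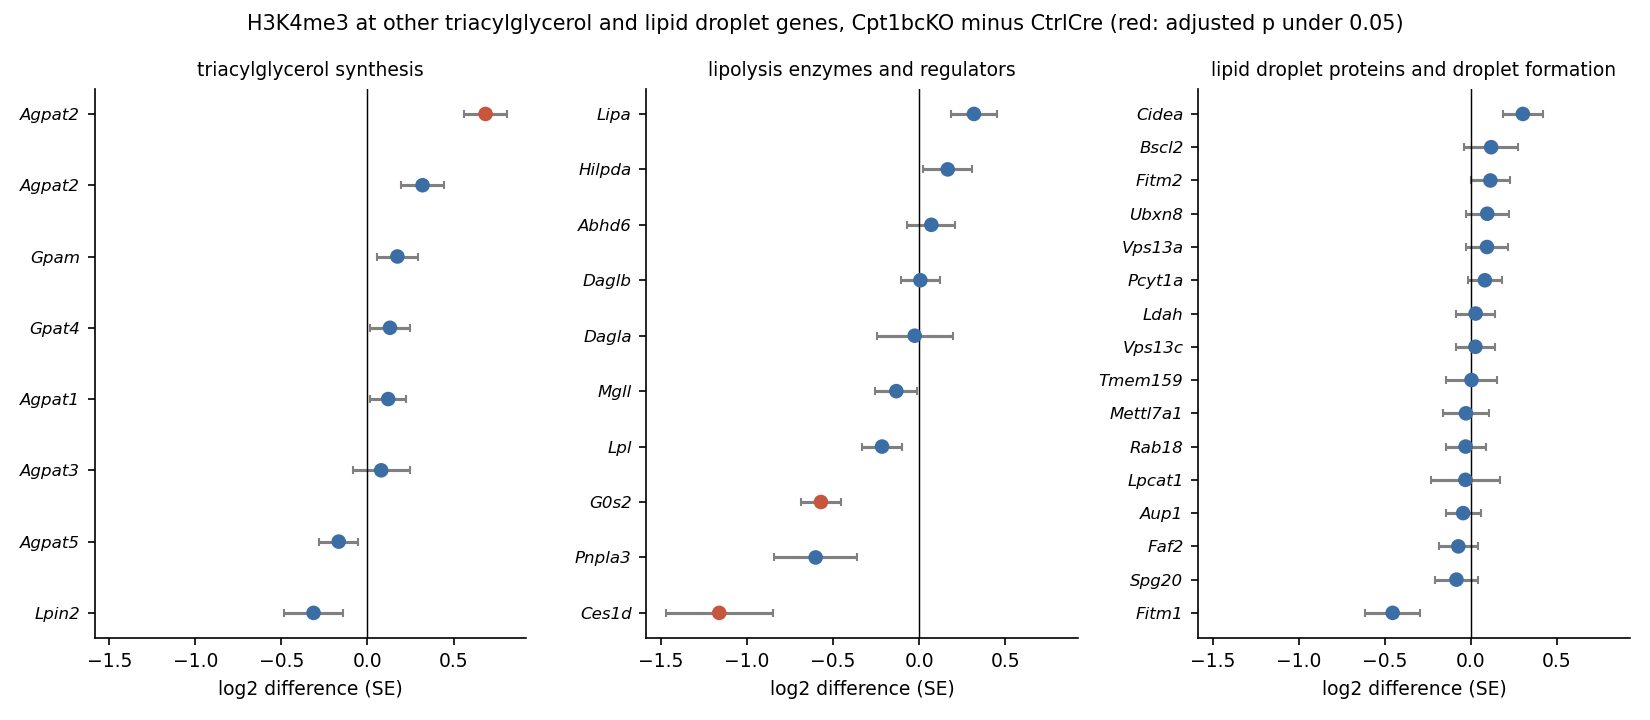
Log2 difference, Cpt1bcKO minus CtrlCre (x axis, bars SE), for each tested peak of 3 lists of other triacylglycerol and lipid droplet genes, with called peaks in red. Called peaks are *Agpat2* at 0.69, *G0s2* at -0.57 and *Ces1d* at -1.16, and the 16 lipid droplet protein peaks hold none.

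The labelled cell type was checked with marker genes. All 8 cardiomyocyte markers had a peak, with a summed value of 7300 to 8646 in CtrlCre and 5790 to 8112 in Cpt1bcKO. Of their 9 peaks, 2 had a positive and 7 a negative difference, with a median log2 difference of -0.16, and 0 were called. The highest, *Myh6*, had 2605, 2399 and 2930 in CtrlCre and 2142, 2446 and 1544 in Cpt1bcKO, with the lowest value in Cpt1bcKO replicate 3. Because several member genes are best known from fat, adipocyte markers were examined as well. Of 7 adipocyte markers 2 had a peak, *Cidea* and *Adrb3*, whereas *Adipoq*, *Plin1*, *Cidec*, *Fabp4* and *Lep* had none. The summed value of the 2 was 128 to 155 in CtrlCre and 170 to 189 in Cpt1bcKO, which did not overlap. *Cidea*, also in the list of lipid droplet proteins, had a log2 difference of 0.30 (SE 0.11, limma adjusted p = 0.218). *Adrb3* had one of 0.48 (SE 0.34, limma adjusted p = 0.624). Fibroblast and endothelial lists had a peak at 1 of 6 and 1 of 5 genes, and leukocytes at 0 of 5. The fibroblast gene *Pdgfra* had a log2 difference of -0.13 (SE 0.18, limma adjusted p = 0.849). The endothelial gene *Kdr* had one of -0.55 (SE 0.26, limma adjusted p = 0.382), and both had overlapping values. Smooth muscle and pericyte markers had a peak at 2 of 4 genes, *Cspg4* and *Myh11*, with a summed value of 69 to 98 in CtrlCre and 22 to 53 in Cpt1bcKO, which did not overlap. *Cspg4* had a log2 difference of -1.05 (SE 0.30, limma adjusted p = 0.061) and *Myh11* one of -0.72 (SE 0.44, limma adjusted p = 0.547). The part of the adipocyte and smooth muscle marker sums in the values of *Hsd17b11*, *Plin2* and *Plin5* was not tested. The peak named *Cpt1b* itself had 428, 407 and 436 in CtrlCre and 572, 689 and 568 in Cpt1bcKO, a log2 difference of 0.52 (SE 0.10, limma adjusted p = 0.00357), and H3K4me3 at a promoter does not report a deletion of exons.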

How the data were processed

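H3K4me3 ChIP–seq libraries were made from sorted adult CM nuclei, 3 per genotype. Input libraries were listed for both genotypes and were not used here. According to the submitters' processing notes, the authors handled reads with FastQC 0.11.8, Trimmomatic 0.39, STAR 2.6.1d, Picard 2.21.7 and DESeq2 1.26.0. The authors called peaks with MUSIC, merged them into 15848 union peaks on mm10 and named each after a nearby promoter. The deposited value of each library is a read count that the authors divided by a DESeq2 size factor and rounded, treated as a score. The authors also deposited the unrounded mean signal of each genotype and the fraction of each peak inside the gene body. The deposited DESeq2 fold changes, p-values and adjusted p-values were not used. Size factors hide any shift shared by all peaks, so differences are relative to the other peaks, and widths are those of peaks merged over both genotypes.

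Whole counts were recovered from the rounded values and the genotype means, with a single solution for 15848 of 15848 peaks. Counting error at the median peak was 8.36% to 15.6%, and a count of 0 allows 3 counts, or values of 1.95 to 6.97 (counting error only). Peaks with a mean of at least 10 were tested with limma 3.58.1 in R 4.3.3 (trend, genotype alone, two-sided, log2(value + 1), Benjamini–Hochberg), which left out 809. Differences on this scale understate changes of low peaks. The script was tested on simulated data. Alternatives were pseudocounts, filters, quantile normalization, limma-voom on recovered counts, a replicate block and leaving out each library. The text names every member, other pathway genes with an adjusted p under 0.05, the highest gene of each list, *Cpt1b*, and neighbouring peaks. Members and lists were chosen with earlier results of these data known.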

Additional observations from a re-analysis of the deposited data

How the results depend on the processing

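*Hsd17b11*, *Plin5* and *Plin2* were called under each of the 7 alternatives that kept all libraries (pseudocounts of 0.5 and 5, no filter, a mean of at least 50, quantile normalization, limma-voom on recovered counts and the replicate block). The genes were chosen on this contrast, so these calls describe the dependence on settings and add no support. Leaving out 1 library gave 1 to 3 members called higher, 229 to 431 peaks called over all tested peaks (85 to 180 higher and 139 to 251 lower), 0 to 3 other pathway peaks called lower, and a median log2 difference of the members from 0.12 to 0.24. Such fits have fewer samples. With quantile normalization 1 other pathway peak was called lower, since *Ces1d* had an adjusted p of 0.0605 in limma, and the cause was not tested. Replicate numbers are shared by the genotypes, and the labels state no pairing. Deviations of same-numbered libraries from their genotype means had correlations of 0.076, -0.081 and 0.105 over the tested peaks. With 3 libraries per genotype these cannot exclude a pairing. With the replicate block 370 peaks were called in place of 441 and 3 members higher. Counting peaks that overlap the annotated gene body gave 11 peaks of the member genes in place of 10. Between 43 and 841 reads stood behind a member value, and whether this depth limits the detection of differences of the size seen at *Plin3*, *Dgat2* and *Lipe* was not tested.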
